A study of Rattus norvegicus with 6 samples.

Results

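The UDP-glucuronosyltransferase (UGT) genes described here are Ugt1a2, Ugt1a6, Ugt2b15, Ugt2b35, Ugt2b37 and Ugt8, measured in the renal cortex of rats given water or nitrilotriacetic acid trisodium monohydrate (NTA), a metal chelator. A probe belonged to the set where its transcript accession maps to one of these 6 symbols in the RefSeq gene table of the GRCr8 assembly. The 6 genes are 6 of 15284 genes named on the array, and all 6 were among the 11965 genes tested. They have 12 probes, of which 11 were among the 42071 probes tested. All animals were male Sprague-Dawley rats, 5 weeks old when bought, kept on a basal diet. One group received water (n = 3) and the other NTA at 1000 mg/kg/day (n = 3), both for 4 weeks, with 1 array per animal.

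UGTs sit in the membrane of the endoplasmic reticulum and transfer glucuronic acid from UDP-glucuronate to small lipophilic molecules, which makes them soluble enough to be excreted. The Ugt1a transcripts arise from 1 locus in which alternative first exons, each with its own promoter, are spliced to a common set of further exons, whereas each Ugt2b gene is a complete gene of its own in a cluster of close relatives. Ugt1a6 conjugates planar phenols, Ugt1a2 belongs to the bilirubin-like group of first exons, and Ugt2b enzymes conjugate steroids and other endogenous and foreign substrates. Ugt8 is a family member by sequence that transfers galactose to ceramide, the step that makes galactosylceramide for myelin and kidney sulfatide, and it serves here as a reference outside drug conjugation. The kidney conjugates part of its own drug and hormone load, mainly in the proximal tubule.

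All 8 protein-coding Ugt1a genes of the RefSeq table lie on chromosome 9 and share 1 gene end, the Ugt2b members lie on chromosome 14 and Ugt8 on chromosome 2. The 6 members were all matched in the RefSeq promoter table (GRCr8), which holds 250 bases before and 50 after each gene start. The 250 bases before the start are shown for the 5 drug-conjugating members, because the signals of the Ugt2b members ran together array by array and their start regions share a long run of letters. Capitals mark the 31-base run that the 3 Ugt2b windows have in common, the GCGTG core of the xenobiotic response element in Ugt1a6, and the pair of HNF1 half-sites (GTTAAT, read here on the other strand) in Ugt1a2. The windows, all on the plus strand, are chr14:21122616-21122865 (Ugt2b15), chr14:21171886-21172135 (Ugt2b37), chr14:21208191-21208440 (Ugt2b35), chr9:96194768-96195017 (Ugt1a6) and chr9:96238769-96239018 (Ugt1a2).
Ugt2b15: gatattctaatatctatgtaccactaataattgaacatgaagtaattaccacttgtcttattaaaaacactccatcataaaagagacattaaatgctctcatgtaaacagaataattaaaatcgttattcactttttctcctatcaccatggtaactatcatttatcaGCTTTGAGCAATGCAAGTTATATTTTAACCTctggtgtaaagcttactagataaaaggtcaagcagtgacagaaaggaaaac
Ugt2b37: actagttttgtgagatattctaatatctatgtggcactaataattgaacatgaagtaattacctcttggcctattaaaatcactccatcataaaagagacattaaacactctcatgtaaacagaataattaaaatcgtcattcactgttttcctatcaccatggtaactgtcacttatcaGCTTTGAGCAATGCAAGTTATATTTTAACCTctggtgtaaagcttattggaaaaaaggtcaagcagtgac
Ugt2b35: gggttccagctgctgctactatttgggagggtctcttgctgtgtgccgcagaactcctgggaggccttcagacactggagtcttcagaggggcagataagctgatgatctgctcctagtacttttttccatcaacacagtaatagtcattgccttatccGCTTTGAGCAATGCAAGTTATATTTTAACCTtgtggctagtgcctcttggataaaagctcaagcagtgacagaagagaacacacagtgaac
Ugt1a6: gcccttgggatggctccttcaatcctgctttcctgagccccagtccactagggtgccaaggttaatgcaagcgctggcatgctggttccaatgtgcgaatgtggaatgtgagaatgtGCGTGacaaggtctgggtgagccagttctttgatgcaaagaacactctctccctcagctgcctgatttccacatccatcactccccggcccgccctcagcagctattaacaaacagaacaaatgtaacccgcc
Ugt1a2: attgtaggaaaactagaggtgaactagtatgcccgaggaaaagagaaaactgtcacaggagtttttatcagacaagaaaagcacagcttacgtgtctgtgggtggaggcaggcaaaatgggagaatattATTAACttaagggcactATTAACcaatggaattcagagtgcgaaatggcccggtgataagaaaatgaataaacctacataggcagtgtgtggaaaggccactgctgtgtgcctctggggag

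The shared Ugt2b run, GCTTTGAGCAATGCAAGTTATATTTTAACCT, starts 82 bases before the start of Ugt2b15, 70 before that of Ugt2b37 and 91 before that of Ugt2b35. On either strand it occurs in 5 of 33469 promoters of the table (0.0149%). Those 5 are the 3 members, Ugt2b and LOC134478834, all on chromosome 14. Ugt2b, whose window also holds the run, has 3 probes on the array, and none was well above background on any array; LOC134478834 has no probe. Ugt2b7, whose signal was also higher on every NTA array, does not hold the run. Aligned over the 250 bases, Ugt2b15 and Ugt2b37 were 84.4% identical, Ugt2b15 and Ugt2b35 56.6%, and Ugt2b35 and Ugt2b37 55.8%. The Ugt2b7 window was 65.1% identical to that of Ugt2b15, 65.0% to that of Ugt2b35 and 58.9% to that of Ugt2b37. The window of Ugt2b, whose probes were not detected, was 62.1% identical to that of Ugt2b15, 60.2% to Ugt2b37 and 53.2% to Ugt2b35. The Ugt1a2 and Ugt1a6 windows were 41.1% identical. Between a Ugt1a and a Ugt2b member the identity was 42.3% to 48.6%. Base composition also differed, with 30.4% G and C in Ugt2b15, 32.8% in Ugt2b37, 47.2% in Ugt2b35, 44% in Ugt1a2, 53.6% in Ugt1a6 and 81.2% in Ugt8, against a median of 51.2% over all windows.

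A further 4 short motifs were searched on both strands of the 300-base windows; of these the antioxidant response element core and the AP-1 site can match overlapping letters. The antioxidant response element core, TGACNNNGC, occurred in 0 of 6 members and in 12.1% of all promoters. The xenobiotic response element core, GCGTG, occurred in Ugt1a6, 133 bases before its start, and in Ugt8, 31 bases before its start, and in 29.7% of all promoters. The AP-1 site, TGANTCA, occurred in 0 of 6 members and in 7.33% of all promoters. The HNF1 half-site, GTTAAT, occurred in both Ugt1a members, at 121 and 104 bases before the start of Ugt1a2 and at 190 and 29 before that of Ugt1a6, and in 7.45% of all promoters. A match describes these letters in this window and says nothing about what binds there. An absence holds for the 300 bases alone, and sequence further from the start was not searched.

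The values that follow are log2 processed signals minus the array's 75th percentile, so that 0 is the signal below which 75% of the probes lie, and a difference of 1 is 1 doubling. The 75th percentile was 1132.6 to 1316.4 signal units, and 68.5% to 73.6% of the probes were well above background. Water 1 and NTA 2 shared a slide, scanned on one day; water 2 and water 3 were on another slide, and NTA 1 and NTA 3 on one more slide, both scanned on a second day. Differences within the slide shared by water 1 and NTA 2 (1 array against 1) and within the second day (2 against 2) stand beside the pooled ones. On the second day the groups were on different slides, so treatment and slide cannot be told apart there. Across genes, the r between arrays was 0.992 to 0.994 for animals of one group and 0.990 to 0.993 across groups. For the S1 and S2 segments of the proximal tubule, 10 of 10 fixed markers were tested. Their mean signals were 6.40 to 6.52 on the water arrays and 6.19 to 6.51 on the NTA arrays. Of 5 hepatocyte markers, Alb and Ttr were well above background on 0 of 6 arrays, Serpina1 on 4, Apoa1 on 5 and Fgb on 6. Only Apoa1 and Fgb were tested: Apoa1 was 0.67 ± 0.22 higher in NTA (limma adjusted p = 0.349, under 0.05 unadjusted) and Fgb 0.20 ± 0.33 (limma adjusted p = 0.843), both with overlapping groups, and their part in the results was not tested. The mean signal of the 6 markers of medulla and papilla was at 2.72 to 2.88 in water and 3.00 to 3.13 in NTA, so that the groups did not overlap, and the part of this in the results was not tested. Over all 11965 genes the median difference between NTA and water was 0.02.

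At its brightest probe, each of the 5 drug-conjugating genes had a higher signal on all 3 NTA arrays than on any water array. The differences were about 0.9 on the log2 scale for the Ugt1a genes and 1.9 for the Ugt2b genes. For Ugt8 the groups overlapped. Of all 11957 genes with a value on every array, 13.0% had all 3 NTA arrays above all 3 water arrays and 7.23% all 3 below. In limma with Benjamini-Hochberg adjustment over all genes, 0 of 6 members passed an adjusted p of 0.05, as against 9 of 11965 genes (0.0752%). At an unadjusted p under 0.05, 5 of 6 members were higher, against 7.76% of all genes, and 0 of 6 were lower, against 4.51%. With a variance trend and robust estimation 1 of 6, Ugt1a2, passed, against 38 genes (0.318%). Ranked by the signed difference among 11965 genes, Ugt2b15, Ugt2b37 and Ugt2b35 were numbers 18, 19 and 20, Ugt1a6 was 169 and Ugt1a2 was 181. In bulk tissue, more RNA per cell and more cells of the type that makes it cannot be told apart. The p-values measure the spread between these animals, with differences between arrays and slides included.

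**Figure D1:**
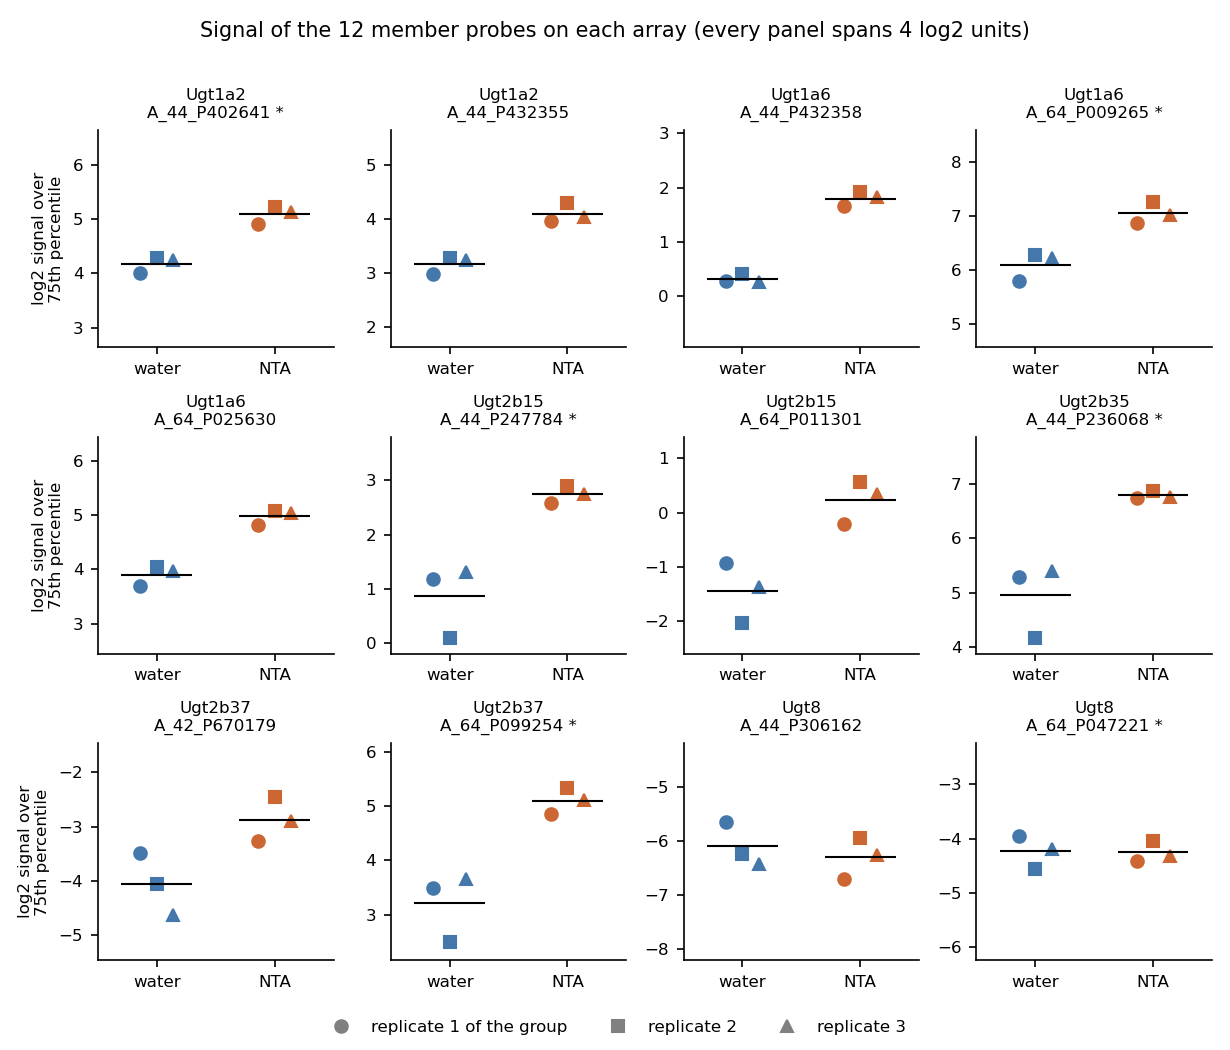
Log2 signal over the array's 75th percentile (vertical axis) at each of the 12 member probes in water (blue) and NTA (orange), 1 point per animal, black lines for group means, and an asterisk for the probe that stood for its gene. All 10 tested Ugt1a and Ugt2b probes show NTA above water, water 2 is the lowest array at the brighter probe of each Ugt2b gene, and both Ugt8 probes overlap; equal symbols do not pair animals.

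Ugt1a2, from the bilirubin-like first exons, had signals of 4.005, 4.29 and 4.25 on water arrays 1 to 3 and of 4.91, 5.23 and 5.12 on NTA arrays 1 to 3. The lowest NTA array was above the highest water array. The difference was 0.91 ± 0.12 (SE), or 1.88-fold with a 95% interval of 1.53 to 2.29 (limma adjusted p = 0.0937, n = 3 per group). The shared slide alone gave 1.22 and the second scan day 0.75. Its second probe, A_44_P432355, had signals of 2.98, 3.28 and 3.23 in water and 3.96, 4.29 and 4.04 in NTA, a difference of 0.93 ± 0.13 (limma adjusted p = 0.121 over all probes). The 2 probes of Ugt1a2 therefore gave differences within each other's SE.

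Ugt1a6, the phenol-conjugating enzyme, is represented by 3 probes, and its brightest, A_64_P009265, stood for the gene. That probe had signals of 5.81, 6.28 and 6.23 in water and 6.87, 7.25 and 7.02 in NTA. Water 1, the lowest, was 0.44 below the mean of the other water arrays, and no NTA array reached down to the water group. The difference was 0.95 ± 0.16, or 1.93-fold with a 95% interval of 1.46 to 2.53 (limma adjusted p = 0.189), with 1.44 on the shared slide and 0.70 on the second day. A_64_P025630, for the same transcript record, had 3.69, 4.05 and 3.97 in water and 4.83, 5.08 and 5.04 in NTA, a difference of 1.08 ± 0.13 (limma adjusted p = 0.103 over all probes). Both probes of this record were thus higher on every NTA array, and neither passed the adjusted threshold.

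The remaining Ugt1a6 probe, A_44_P432358, was designed on another transcript record of the gene, NM_057105, and it rose in NTA. It had signals of 0.28, 0.40 and 0.25 in water and of 1.65, 1.92 and 1.83 in NTA, the tightest water group of the 12 member probes. The difference was 1.49 ± 0.09, or 2.81-fold (limma adjusted p = 0.0199 over 42071 probes), with 1.64 on the shared slide and 1.41 on the second day. It was the only member probe of 11 past the threshold, which 26 of all probes passed (0.0618%), 25 of them higher in NTA (0.0594%). At 10 of the 11 tested member probes the NTA arrays were all above the water arrays, against 10.9% of all probes. The call was lost when any 1 of the 6 arrays was left out (adjusted p = 0.054 to 0.152 in limma, differences of 1.43 to 1.56) and with scan day as a block (0.0696) or slide as a fixed block (0.204).

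Relative to A_64_P009265 on the same array, the NM_057105 probe was 0.54 ± 0.14 higher in NTA than in water, and relative to A_64_P025630 it was 0.41 ± 0.10 higher. For both contrasts the groups did not overlap, and the exact two-sided permutation p was 0.1, the smallest that 3 against 3 arrays can give (0.1 after adjustment over the 2 contrasts). These contrasts were chosen after the values were seen. Probe sequences were not used here, so it cannot be told whether a Ugt1a probe reads its own first exon or the exons that all Ugt1a transcripts share.

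Ugt2b15, a steroid-conjugating enzyme, had signals of 1.18, 0.09 and 1.32 on water arrays 1 to 3 and of 2.58, 2.89 and 2.75 on the NTA arrays. Water 2 was 1.16 below the mean of the other water arrays, while the NTA arrays spanned 0.31. The difference was 1.88 ± 0.33, or 3.68-fold with a 95% interval of 2.08 to 6.52 (limma adjusted p = 0.189), with 1.72 on the shared slide and 1.96 on the second day. The second probe, A_64_P011301, had -0.93, -2.03 and -1.36 in water and -0.20, 0.57 and 0.35 in NTA, a difference of 1.68 ± 0.33 (limma adjusted p = 0.251 over all probes). Water 2 was again the lowest array, and the groups did not overlap at either probe.

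Ugt2b35 has 1 probe, with signals of 5.30, 4.16 and 5.39 in water and of 6.74, 6.88 and 6.76 in NTA. Water 2 was 1.18 below the mean of the other water arrays, and the NTA arrays spanned 0.14. The difference was 1.84 ± 0.33, or 3.59-fold with a 95% interval of 2.03 to 6.34 (limma adjusted p = 0.196), with 1.58 on the shared slide and 1.97 on the second day.

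For Ugt2b37 the signals were 3.50, 2.49 and 3.66 in water and 4.85, 5.33 and 5.11 in NTA. Here water 2 was 1.09 below the mean of the other water arrays, as in the other Ugt2b members. The difference was 1.88 ± 0.33, or 3.68-fold with a 95% interval of 2.10 to 6.45 (limma adjusted p = 0.189), with 1.84 on the shared slide and 1.90 on the second day. Its dim probe, A_42_P670179, had -3.49, -4.05 and -4.63 in water and -3.26, -2.46 and -2.90 in NTA, a difference of 1.18 ± 0.34 (limma adjusted p = 0.36 over all probes), with water 3 as the lowest array. The probes of Ugt2b37 were higher in NTA to unequal degrees, and their order of water arrays was not the same.

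At the brightest probes of the 3 Ugt2b members, water 2 was the lowest array. Without it, the differences were 1.496 for Ugt2b15, 1.45 for Ugt2b35 and 1.52 for Ugt2b37. The mean signal of the markers of the S3 segment of the proximal tubule (7 of 7 tested) was at 1.91, 2.65 and 2.32 on water arrays 1 to 3, highest on water 2, and at 2.25 to 2.67 in NTA; their part in the Ugt2b values was not tested. The Ugt2b genes are close relatives, and how far one probe reads its neighbours' transcripts cannot be told here.

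Ugt8, the ceramide galactosyltransferase, had signals of -3.96, -4.57 and -4.19 in water and -4.41, -4.04 and -4.32 in NTA. The groups overlapped, and the difference was -0.02 ± 0.18, with a 95% interval of -0.46 to 0.43 (limma adjusted p = 0.977). On the shared slide it was -0.08 and on the second day 0.01, and its sign also turned with normexp background correction (0.09). Its interval lies below the difference of every Ugt1a and Ugt2b member. Ugt8 was dim, with a mean of -4.24 in water beside 0.86 for Ugt2b15, the dimmest of those members. The part of signal level in this was not tested. The second Ugt8 probe, A_44_P306162, was well above background on 1 of 6 arrays and was not tested.

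**Figure D2:**
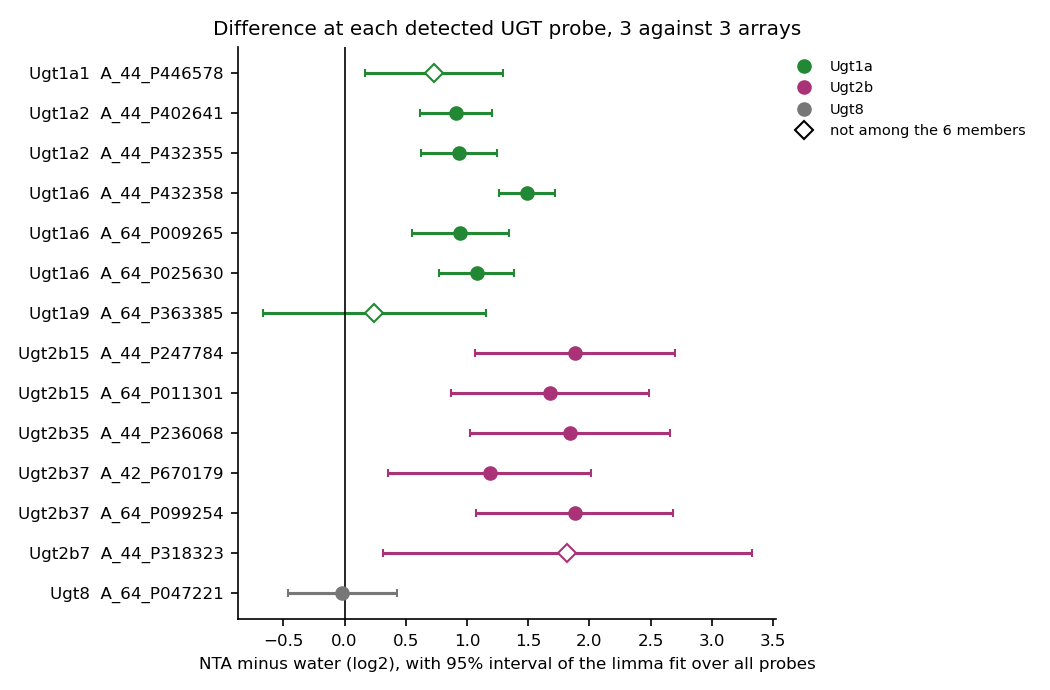
Difference between NTA and water (log2, horizontal axis) at each of the 14 detected UGT probes, with the 95% interval of the limma fit over all probes, for 3 against 3 arrays. Filled circles are the members and open diamonds other UGT genes; the 5 Ugt1a member probes lie between 0.91 and 1.49, the 5 Ugt2b member probes between 1.18 and 1.88, and Ugt8 at -0.02.

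Read at the brightest probe of each gene, the Ugt2b genes differed more between the groups than the Ugt1a genes. The excess was 0.90 to 0.97 on the log2 scale in the 6 pairs of a Ugt2b and a Ugt1a member. For this contrast, 3 against 3 arrays cannot give a p under 0.1. The ratio of Ugt2b to Ugt1a signal on the same array was compared between the groups; its own level depends on the probes and is not read. Ugt2b15 over Ugt1a2 was 0.97 ± 0.44 higher in NTA, Ugt2b35 over Ugt1a2 0.94 ± 0.46, and Ugt2b37 over Ugt1a2 0.97 ± 0.42. Against Ugt1a6 the differences were 0.94 ± 0.48 for Ugt2b15, 0.90 ± 0.49 for Ugt2b35 and 0.93 ± 0.46 for Ugt2b37. In all 6 pairs the lowest NTA array was above the highest water array, and the exact two-sided permutation p was 0.1, the smallest possible with 3 against 3 arrays (0.1 after adjustment over the 6 pairs). The 95% intervals of the differences included 0, running for Ugt2b15 over Ugt1a2 from -0.25 to 2.20.

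The pairs share genes and arrays, and the contrast was smaller without water 2. Without that array the 6 differences were 0.42 to 0.55. Within the shared slide they were 0.49, 0.36 and 0.61 against Ugt1a2 and 0.28, 0.14 and 0.39 against Ugt1a6, for Ugt2b15, Ugt2b35 and Ugt2b37 in that order. On the second day, which holds water 2, they were 1.15 to 1.27. With the mean of all probes of a gene, Ugt2b37 over Ugt1a6 was 0.36 higher in NTA. The differences at single probes overlapped between the subfamilies. The Ugt1a6 probe A_44_P432358 differed by 1.49 ± 0.09 and the dim Ugt2b37 probe by 1.18 ± 0.34. With 1 array left out, that Ugt1a6 probe was at 1.43 to 1.56, and the Ugt2b genes without water 2 were at 1.45 to 1.52.

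**Figure D3:**
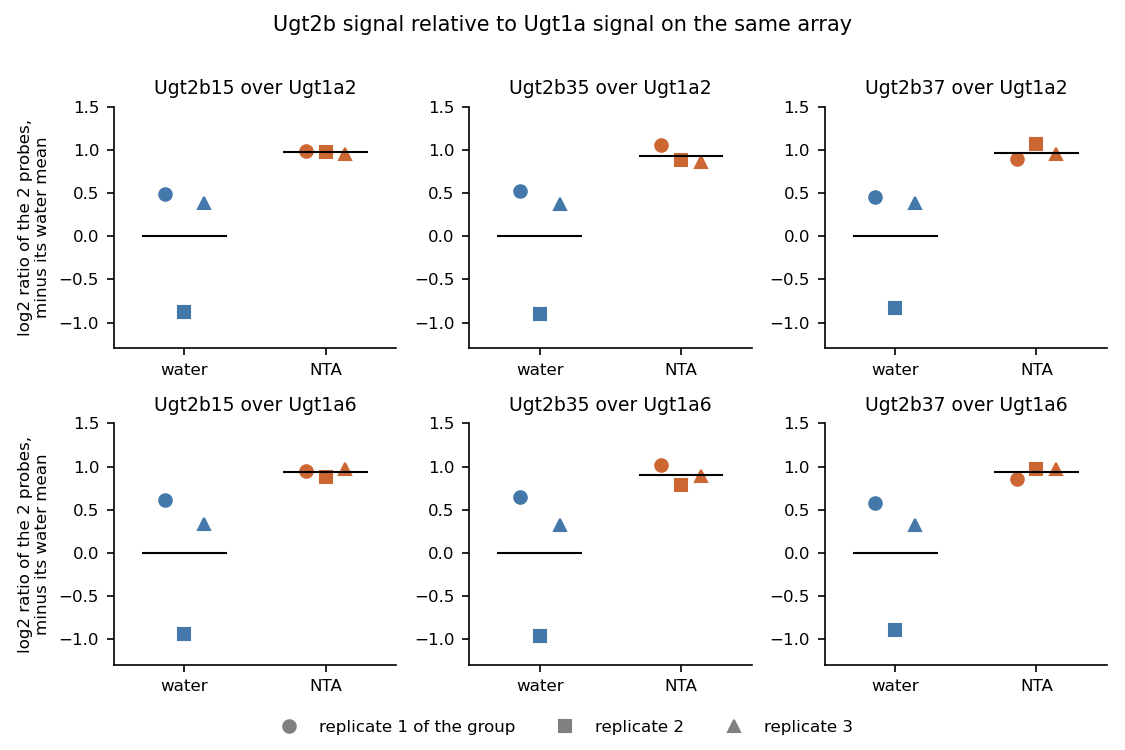
Log2 ratio of a Ugt2b to a Ugt1a probe on the same array, minus its mean over the water arrays (vertical axis), in water (blue) and NTA (orange), with 1 point per animal and black lines for group means. NTA means are 0.90 to 0.97 above water means in the 6 panels, and water 2 is the lowest array in each.

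Among the other UGT genes on the array, Ugt1a1, the bilirubin-conjugating enzyme, had 1.08, 1.77 and 1.90 in water and 2.14, 2.45 and 2.34 in NTA. The difference was 0.73 ± 0.23 (limma adjusted p = 0.323), without overlap, and it was 1.37 on the shared slide, 0.41 on the second day and 0.47 without water 1. Ugt2b7 had -0.05, 1.26 and -1.31 in water and 1.74, 1.76 and 1.86 in NTA, a difference of 1.82 ± 0.62 (limma adjusted p = 0.349). Its water arrays spanned 2.57 and its NTA arrays 0.12, and the difference was 1.80 on the shared slide, 1.83 on the second day and 1.18 without water 3. Ugt1a9 overlapped between the groups, at 0.24 ± 0.37 (limma adjusted p = 0.831), and its direction turned, from -0.80 on the shared slide to 0.77 on the second day. Of 25 UGT genes listed, 14 had a probe under their symbol and 9 were tested, with a median difference of 0.95. Of the 9 tested, 7 were without overlap and higher in NTA, against 13.0% of all genes, and 5 of these 7 are members. Ugt2a1, Ugt2a3, Ugt2b and Ugt2b1 were well above background on 0 of 6 arrays, and Ugt2b10 on 1 of 6.

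Across the 6 arrays, the genes whose signal ran most like each member were found by Pearson correlation over 11956 other tested genes; the arrays share the group difference and the slides, so these values are descriptions. Ugt2b15 was nearest to Ugt2b37 (r = 0.998) and Ugt2b35 (r = 0.998), followed by Srp68 (r = 0.995). Ugt2b35 was nearest to Ugt2b15 and Ugt2b37 (r = 0.994), then to Lyzl1 (r = 0.993), and Ugt2b37 to Ugt2b15, Srp68 (r = 0.996) and Ugt2b35. The 3 Ugt2b members were thus among each other's 3 nearest genes. Ugt1a2 was nearest to Nipsnap1 (r = 0.996), Gsta3 (r = 0.996) and Pam16 (r = 0.994), with Ugt1a6 at rank 5 (r = 0.992). For Ugt1a6 the nearest were Kgd4 (r = 1.000), Zfp507 (r = 0.996) and Pdk2 (r = 0.996), with Ugt1a2 at rank 5. Between a Ugt1a and a Ugt2b member r was 0.80 to 0.88. Ugt8 was nearest to Ddx21 (r = 0.991), Tia1 (r = 0.986) and Or8s8 (r = 0.984), and its r with the other members was -0.14 to 0.29.

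The genes that supply the sugar donor came next. Beside the counts for this and the later lists, 7.76% of all genes were higher and 4.51% lower at an unadjusted p under 0.05 in limma. The adjusted threshold was passed by 0.0752% of all genes, and by 0.318% with a variance trend. Of 10 genes of UDP-glucuronate supply and transport, 0 passed the adjusted threshold in limma (1 with a variance trend), 2 were higher at an unadjusted p under 0.05 and the median difference was 0.10, beside 0.95 for the UGT family and 0.02 for all genes. Ugp2, which makes UDP-glucose, had 3.59, 3.57 and 3.47 in water and 4.004, 4.16 and 4.05 in NTA, a difference of 0.53 ± 0.07 (limma adjusted p = 0.0945). Slc35b1, an endoplasmic reticulum nucleotide transporter, differed by 0.25 ± 0.06 (limma adjusted p = 0.228). Ugdh, which oxidises UDP-glucose to UDP-glucuronate, differed by 0.21 ± 0.09 with overlapping groups (limma adjusted p = 0.449).

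Of 8 genes of glucuronate and ascorbate breakdown, 0 passed in limma, 0 were past an unadjusted p of 0.05 and the median difference was 0.14. Rgn, gluconolactonase, differed by 0.91 ± 0.37 and Cryl1, L-gulonate dehydrogenase, by 0.61 ± 0.25, and the Cryl1 difference was 1.15 on the shared slide and 0.33 on the second day. Akr1a1, which reduces glucuronate, differed by 0.15 ± 0.08 and Miox, the inositol oxygenase of the kidney, by 0.02 ± 0.06. The direction of the Miox difference turned under quantile normalization and under median scaling.

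The list of conjugate transporters holds 5 ATP-driven pumps (Abcc1 to Abcc4 and Abcg2), which export. It also holds 3 Slc22 carriers of organic anions (Slc22a6, Slc22a7 and Slc22a8), of which Slc22a6 and Slc22a8 act at the basolateral membrane, mostly inward. Of these 8 genes, 0 passed the adjusted threshold in limma, 3 were higher at an unadjusted p under 0.05, 2 passed with a variance trend and the median difference was 0.57. Abcc3 had -1.56, -1.57 and -1.59 in water and -0.59, -0.13 and -0.32 in NTA, a difference of 1.23 ± 0.12 (limma adjusted p = 0.0648). Abcc4 had 2.64, 2.46 and 2.52 in water and 3.64, 4.35 and 3.90 in NTA, a difference of 1.42 ± 0.19 (limma adjusted p = 0.0937). Abcc2 had 2.20, 1.69 and 1.94 in water and 2.89, 3.68 and 3.28 in NTA, a difference of 1.34 ± 0.23 (limma adjusted p = 0.189). Of the 8 genes, 4 were higher on every NTA array than on any water array, against 13.0% of all genes. They were Abcc2, Abcc3 and Abcc4, which export glucuronides and other conjugates, and Abcc1, which differed by 0.15 ± 0.06. The pump Abcg2 overlapped between the groups, at -0.02 ± 0.13. Slc22a6, the main organic anion uptake carrier, differed by -0.09 ± 0.11.

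Ugt8 works in the pathway that makes and breaks down galactosylceramide. Of 14 genes of galactosylceramide and sulfatide metabolism, 0 passed in limma, 0 were past an unadjusted p of 0.05, and the median difference was -0.06. Degs2 and Degs1, the ceramide desaturases, differed by -0.28 ± 0.18 (-0.46 to -0.11 with 1 array left out) and -0.17 ± 0.15 (-0.31 to -0.05, and 0.09 with slide as a fixed block). Arsa, the sulfatide-cleaving arylsulfatase, differed by -0.23 ± 0.11 (-0.30 to -0.14) and Psap, the precursor of saposins, by -0.10 ± 0.06.

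Other conjugating enzymes had differences in both directions. Of 16 tested genes of conjugation other than glutathione transferases, 0 passed in limma, 4 were higher and 1 lower at an unadjusted p under 0.05, and the median difference was 0.13. Sult1c2, a sulfotransferase, had 6.70, 7.06 and 7.08 in water and 5.84, 6.17 and 6.17 in NTA, a difference of -0.88 ± 0.15 (limma adjusted p = 0.179). Its groups did not overlap, with NTA below water, and the difference was -0.53 with slide as a fixed block. Sult2b1, a sterol sulfotransferase, differed by 0.42 ± 0.08 (limma adjusted p = 0.206) and Tst, a sulfurtransferase, by 0.19 ± 0.06.

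UGT genes are known targets of several xenobiotic-sensing factors, and the other targets of each were read on the same arrays. Of 19 tested NRF2 targets, 2 passed and rose in limma, 18 were higher at an unadjusted p under 0.05, and the median difference was 0.71. Ephx1, microsomal epoxide hydrolase, rose by 1.26 ± 0.10 (limma adjusted p = 0.0472), and Akr7a3, an aldehyde reductase, by 1.24 ± 0.11 (limma adjusted p = 0.0495). The Ephx1 call was lost without any 1 array other than NTA 2, and the Akr7a3 call without any 1 of the 6, with adjusted p = 0.111 to 0.214 and 0.126 to 0.214 in limma; both were also lost with scan day as a block (0.0915 and 0.111) and under quantile normalization (0.0565 for both), among other alternatives. Ftl1, the ferritin light chain, differed by 0.19 ± 0.06.

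Of 4 tested targets of the aryl hydrocarbon receptor (AHR), 0 passed in limma, 2 were higher at an unadjusted p under 0.05, 1 passed with a variance trend, and the median difference was 0.09. Nqo1, a quinone reductase that is also an NRF2 target, had -2.23, -2.35 and -1.87 in water and 0.89, -0.01 and 0.80 in NTA, a difference of 2.71 ± 0.27 (limma adjusted p = 0.0648). Aldh3a1, the other of these 2, differed by 0.22 ± 0.07 at its brightest probe and by 0.05 with all its probes averaged (limma adjusted p = 0.846), and Nfe2l2, the NRF2 gene, by -0.05 ± 0.11. Ahrr, the remaining tested target, differed by -0.05 ± 0.28 with overlapping groups. The AHR targets Cyp1a1 and Cyp1a2 were well above background on 0 of 6 arrays, and Cyp1b1 on at most 3 at any probe.

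Of 11 targets of CAR and PXR, the nuclear receptors for drugs, 4 were tested, 0 passed in limma, 1 was higher at an unadjusted p under 0.05, and the median difference was 0.06. Alas1, the first enzyme of heme synthesis, differed by 0.54 ± 0.12 (limma adjusted p = 0.226), Abcb1a, a drug efflux pump, by 0.16 ± 0.19 and Por, the P450 reductase, by -0.12 ± 0.10. Cyp2b2, the P450 of this list that was tested, differed by -0.04 ± 0.12 with overlapping groups (limma adjusted p = 0.922). Cyp2b1, Cyp3a2, Cyp3a9 and Cyp3a18 were well above background on 0 of 6 arrays.

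Of 20 tested regulators of UGT genes, 0 passed in limma, 5 were higher at an unadjusted p under 0.05, and the median difference was 0.05. Bach1, a repressor at antioxidant response elements, had -1.96, -2.03 and -1.97 in water and -1.45, -1.19 and -1.31 in NTA, a difference of 0.67 ± 0.08 (limma adjusted p = 0.0937). Nr1i3, which encodes CAR, was dim, with a mean of -4.52 in water and -3.91 in NTA. It differed by 0.61 ± 0.09 (limma adjusted p = 0.149, and 0.194 with a variance trend). Mafg, a partner of NRF2, differed by 0.32 ± 0.06 (limma adjusted p = 0.211). Nr1h4, the bile acid receptor, differed by -0.14 ± 0.07.

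**Figure D4:**
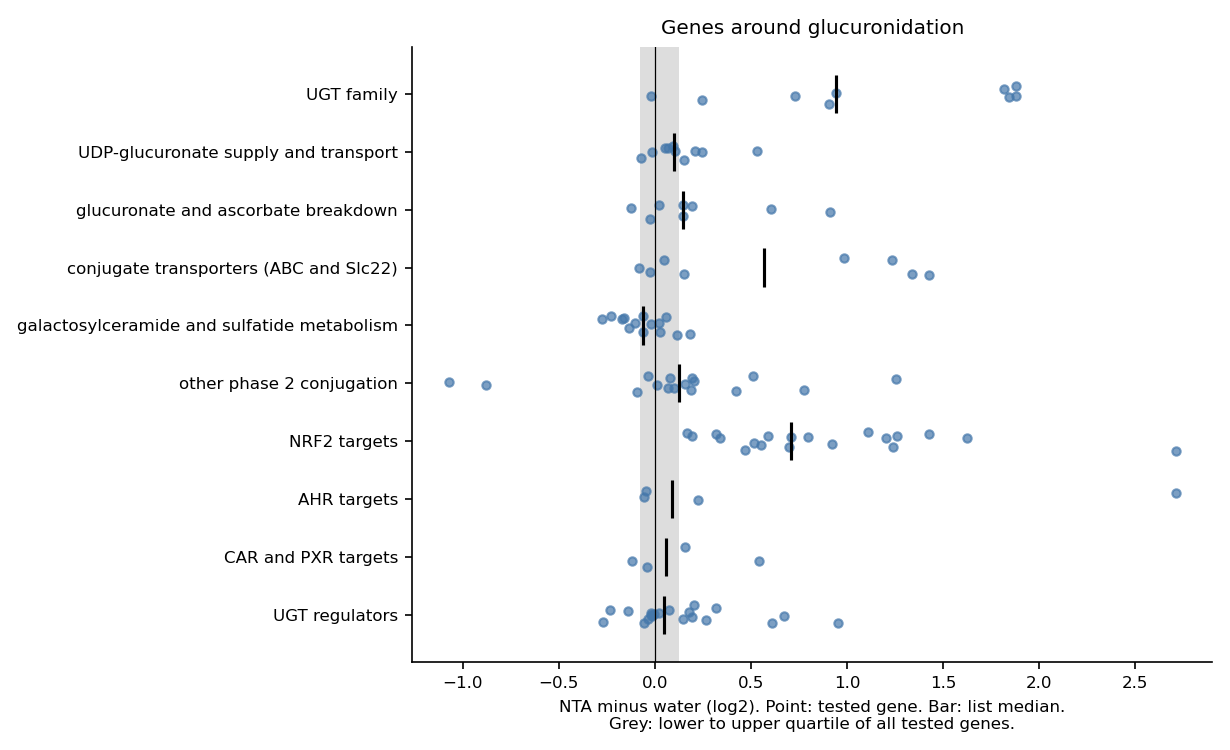
Difference between NTA and water (log2, horizontal axis) for each tested gene of the 10 lists, with black bars for list medians and a grey band from the lower to the upper quartile of all tested genes (-0.08 to 0.12). The 3 highest medians are those of the UGT family (0.95), NRF2 targets (0.71) and the conjugate transporters, uptake carriers included (0.57); genes in more than 1 list are drawn in each.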

How the data were processed

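Renal cortex RNA of 6 rats was hybridised, 1 animal per 1-colour Agilent array. The deposited intensity values are linear, background-corrected processed signals from Feature Extraction 10.7.1.1 per the file headers (10.7 per the submitters' processing notes). A deposited ratio table holds the same signals divided by 1 number for each array, which lay within 0.0718% of that array's 75th percentile; how it was set is not stated in the labels or headers. Arrays, not counts, set the precision.

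Of 61657 spots other than controls, 84 spike-in probes and all outlier spots were dropped; saturated spots stayed in. Probes were named by unversioned accession through RefSeq (GRCr8): 27460 had 1 symbol, and 34113 had none or several and were left unnamed. Log2 signal minus the 75th percentile was fitted with limma 3.58.1 in R 4.3.3, without trend, two-sided, over the 11965 genes with a probe that all 3 arrays of 1 group showed well above background, each gene by its brightest probe, and over 42071 such probes. The fit was tested on simulated data. Normexp (offset 50) used median signals, since the files hold no mean signal. Other alternatives were scaling, filter, probe, blocks for slide, scan day and replicate number, a variance trend, and leaving out each array.

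Subfamilies were compared by exact permutation of the 6 arrays. The genes named are all members; in each list, those past the threshold, otherwise the 3 of smallest p, plus the brightest; and each member's 3 most correlated genes. The other UGT genes, the P450 genes, Abcc1, Abcg2, Ahrr and the hepatocyte markers fall outside this rule and were named after their values were seen. Members and lists were chosen with earlier results of these data known. The further comparison of Ugt1a6 probes was added after seeing the values. Upstream sequences are from RefSeq; array design and gene table rest on different builds.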

Additional observations from a re-analysis of the deposited data

How the results depend on the processing

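The 5 Ugt1a and Ugt2b members were higher in NTA in 110 of 110 values under the alternatives, and the Ugt2b over Ugt1a contrast in 78 of 78. These values come from the same arrays and are not independent, and some could not differ from the main ones. The filters, the fit over all probes, the variance trend, scan day and the replicate block repeated each member's main difference (0.91 for Ugt1a2). Slide as a fixed block repeated the shared slide (1.22 for Ugt1a2), and the replicate block repeated the main contrast. The number of genes past the threshold, 9 as reported, was 22 with normexp, 38 with a variance trend and robust estimation, 5 with slide as a fixed block, and 0 with quantile normalization, with the 75th percentile of detected probes, with median scaling, with no filter, with scan day as a block and with the replicate block; leaving out 1 array gave 0 to 4. With every probe in 1 fit, the count is of probes, 26 of 42071. Replicate numbers did not pair the animals (correlations of same-numbered deviations 0.07, -0.09 and 0.04), so the replicate block, under which no UGT gene passed, is given for completeness. Ugt1a2 was at 0.91 with the variance trend, where it passed (limma adjusted p = 0.0399), at 0.75 within the other scan day and 1.22 within the shared slide, and Ugt1a6 at 0.70 and 1.44. The NM_057105 probe of Ugt1a6 lost its call with slide as a fixed block (1.64), scan day as a block (1.49), the replicate block (1.49, limma adjusted p = 0.217) and each array left out (1.43 to 1.56), and passed under the other 7 alternatives run. Within the shared slide the contrast was 0.36 for Ugt2b35 over Ugt1a2, 0.28 for Ugt2b15 over Ugt1a6 and 0.14 for Ugt2b35 over Ugt1a6; with all probes averaged it was 0.36 for Ugt2b37 over Ugt1a6. Ugt8, near 0, changed sign with normexp (0.0945), within the other scan day (0.0126) and over the arrays left out (-0.18 to 0.12). Among 620 values of 31 named list genes, 9 changed sign, 10 newly passed and 26 lost a call. The sign changes were Abcb1a (-0.0053 to 0.32 over the arrays left out), Degs1 (0.0914 with slide as a fixed block), Miox (-0.12 with quantile normalization, -0.0052 with median scaling, -0.013 to 0.0486 over the arrays left out), Nfe2l2 (-0.14 to 0.0162) and Slc22a6 (0.0615 with slide as a fixed block, -0.14 to 0.0235). Leaving out an array leaves fewer samples; the other causes were not tested. The alternatives within slide or day and those for the Ugt1a6 probe were chosen after seeing the data.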
